A study of Mus musculus with 45 samples.

Results

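The comparison set Bat3 knockout (KO) against wild-type (WT) dendritic cells kept in medium, without an added stimulus or inhibitor. Its 10 libraries, 5 KO and 5 WT, were taken by title and treatment label from the 45 libraries of the series. All cells were grown from bone marrow with 20 ng/ml of the cytokine GM-CSF, replated at day 9, left for 8 h, and sorted as live cells with high CD11c. WT animals were C57BL/6, and KO animals were C57BL/6 with the genotype Bat3 fl/fl CD11c Cre, in which Cre recombinase from the CD11c promoter acts on loxP-flanked Bat3. Recombination in such cells begins only once CD11c is made, and the labels name neither the floxed exons nor whether a replicate was 1 mouse or a pool. Other groups of the series were used where the text says so. These were WT and KO cells with 4PBA, LPS or 4u8C, and WT cells with rapamycin, each for 8 h in 5 replicates.

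Bat3 is an older symbol of Bag6, the gene of a cytosolic chaperone that shields exposed hydrophobic segments of newly made proteins. With its partners Ubl4a and Get4 it passes tail-anchored membrane proteins to the factors that insert them into the endoplasmic reticulum, and it directs mislocalized proteins to ubiquitin ligases and the proteasome. Dendritic cells are antigen-presenting cells, and cultures with GM-CSF hold dendritic cells together with macrophage-like cells. Bag6 lies within the major histocompatibility complex (MHC), between a region of class II and a region of class I antigen-presenting genes.

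Total expected counts ran from 2876792 to 4233895 in the WT libraries and from 2501893 to 4312080 in the KO libraries, so depth overlapped. The precursor of ribosomal RNA, Rn45s, took 9.62% to 12.44% of the counts. Of 15 dendritic cell marker genes, none was at 0 throughout the WT libraries and only Cd209a was at 0 in all KO libraries. Summed levels of those markers ran from 3312 to 4169 CPM (counts scaled to the same effective library size) in WT and from 2797 to 5446 CPM in KO libraries. Of 11 T and NK cell markers with a row, the sum stayed at or under 2.27 CPM. Neutrophil markers summed to 364 to 629 CPM in WT and 219.9 to 516 CPM in KO libraries, with Mpo, Elane, Ltf and Retnlg at 0 in all 10. In bulk RNA, fewer cells of a type and less RNA per cell cannot be told apart.

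The library descriptions end in a letter and a number, read here as a plate position, which the labels do not state. All 5 WT medium codes were in row A, from column 1 to column 5, and all 5 KO medium codes were inner codes in row E. Codes of WT groups ran before those of KO groups on the plate, so plate order and genotype cannot be told apart either. Outer codes (row A, column 1 or column 12) and genotype therefore cannot be told apart within the 10 medium libraries. In 4 other groups, WT and KO with 4u8C, WT with rapamycin and KO with LPS, 7 libraries had outer and 13 had inner codes. These 20 libraries give an estimate of the difference between outer and inner codes within a group, which was used as an additional term in the fit. Their outer codes were in columns 1 and 12 and never in row A, so the correction of row A libraries is an extrapolation. A second check came from KO against WT with 4PBA, in which all 10 codes were inner and no library was shared with the medium comparison. Equal replicate numbers may stand for the same cultures across treatments, which the labels do not state. Among KO libraries, the gene Ifitm1 was lowest in replicate 4 and highest in replicate 5 in medium and with 4PBA, LPS and 4u8C. These were 18.9 and 69.5 CPM in medium and 14.4 and 55.95 CPM with 4PBA. With LPS they were 17.5 and 68.5 CPM, and with 4u8C 17.7 and 84.3 CPM. The medium and 4PBA comparisons may therefore not be independent, which was not tested. The fits treated all 45 libraries as independent. 4PBA itself changes gene expression, so a difference between these 2 comparisons is not a measure of the codes alone.

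Bag6, the targeted gene, was measured at 15.5, 11.8, 15.7, 12.5 and 16.7 CPM in WT replicates 1 to 5. In KO replicates 1 to 5 it was 8.96, 8.93, 5.85, 13.7 and 8.65 CPM. KO replicate 4 lay inside the WT range, and the other 4 KO libraries lay below every WT library. Replicate 4 was also the highest KO library with 4PBA (12.39 CPM), LPS (14.85 CPM) and 4u8C (14.61 CPM), and why was not tested. The means were 14.4 ± 2.16 CPM in WT and 9.22 ± 2.83 CPM in KO (SD, n = 5 each), a difference that passed a two-sided exact permutation test (p = 0.024, where 0.0079 is the smallest p that 5 against 5 libraries allow). In the edgeR fit over all genes the log2 fold change was -0.65 (SE 0.23) and did not pass (adjusted p = 0.072), while without KO replicate 4 it was -0.85 and passed (edgeR adjusted p = 0.022), as it did with 1 surrogate variable (-0.67, edgeR adjusted p = 0.048). With the edge-code term it was -0.88 (SE 0.29, edgeR adjusted p = 0.20). The libraries labelled KO thus kept a part of the Bag6 signal. Each value rests on 24 to 77 reads of the whole gene, so its precision is limited by counting and it does not measure the floxed exons alone. Of the 12 tested genes of the BAG6 complex and the tail-anchored route, 2 rose in KO cells and none fell, against 8.92% of all genes called in either direction. These were Ubqln1 (log2 fold change 1.59, SE 0.28, edgeR adjusted p = 9.5e-05), the shuttle factor ubiquilin-1, and Get4 (0.85, SE 0.19, edgeR adjusted p = 0.0013), a subunit of the BAG6 complex. With the edge-code term neither passed (Ubqln1 0.55, edgeR adjusted p = 0.46, and Get4 0.36, edgeR adjusted p = 0.63), and both were lower in outer codes.

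Without regard to the codes, KO and WT cells in medium differed at 918 of 10287 genes tested, 8.92% of them (edgeR quasi-likelihood F test, Benjamini-Hochberg adjusted p under 0.05). Of these, 680 (6.61%) were higher and 238 (2.31%) were lower in KO cells. The 5 KO and 5 WT libraries did not overlap at 932 genes (9.06%), with KO higher at 609 (5.92%) and lower at 323 (3.14%). With the edge-code term 68 genes (0.661%) passed, 59 of them higher and 9 lower. Called with the same sign in both fits were 67 genes (0.651%), 58 higher and 9 lower in KO cells. The term widened the error as well as moving the estimates: the median SE of the log2 fold change was 0.22 without and 0.27 with it. An unadjusted p under 0.05 was reached by 2202 genes without and 993 genes with the term. For 622 genes that were higher in KO cells and did not pass with the term, the median log2 fold change went from 1.08 to 0.55. For 229 genes that were lower and did not pass, it went from -0.61 to -0.46. Counts moved with single libraries. Genes lower in KO cells numbered 108 without KO medium replicate 1, 136 without WT medium replicate 1, 154 without WT medium replicate 2 and 157 without KO medium replicate 4. Genes called in both fits numbered 23 higher and 4 lower without KO medium replicate 1, and 36 higher without either WT medium replicate 2 or WT 4u8C replicate 5. The lower ones numbered 15 without WT 4u8C replicate 4, and 14 genes were lower with the term without KO LPS replicate 5. In all 30 fits that each left out 1 library, 25 of the 67 genes were called in both fits, 22 higher and 3 lower. The library left out was 1 of the 10 medium libraries or of the 20 in the 4 groups with both kinds of code. For those 20 only the fit with the term was repeated.

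**Figure D1:**
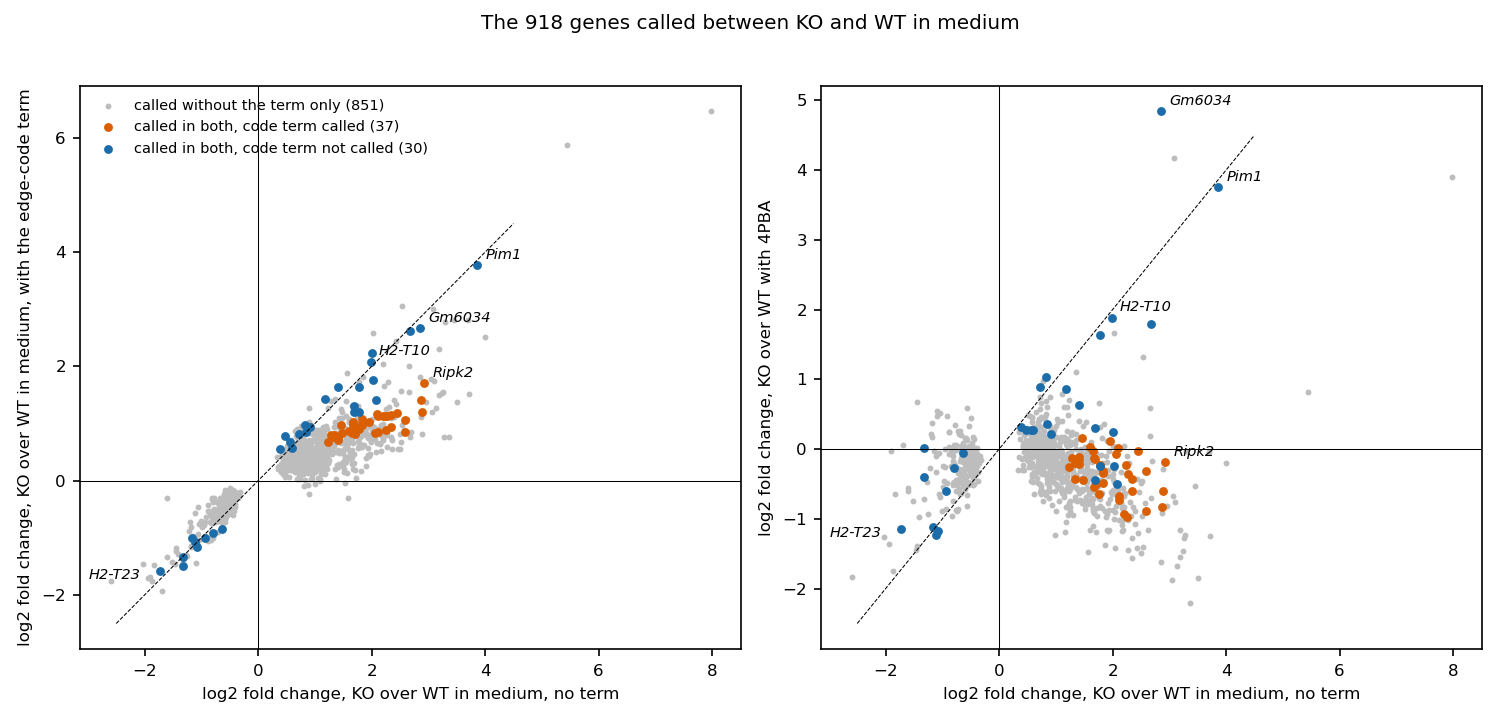
Log2 fold changes of the 918 genes called between KO and WT cells in medium, plotted against the same difference with the edge-code term (left) and against KO over WT with 4PBA (right). Each point is 1 gene, the dashed line marks equal values, and colours separate the 851 genes called without the term only (grey), the 37 called in both fits whose code term was itself called (orange) and the other 30 called in both (blue). Pim1 and H2-T10 lie near the line on both sides, whereas the orange genes, Ripk2 among them, lie below it. The grey points farthest to the right, Eif3j2 and Krt16, had no WT medium reads, so their fitted fold changes have no meaning as a size.

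The code term itself was called for 417 genes (4.05%), 376 of them (3.66%) lower and 41 (0.399%) higher in outer codes. The count of higher genes was not stable, at 6 without WT 4u8C replicate 4 and 145 without WT 4u8C replicate 5, and 10 of the 41 were shared with the fit without a filter on low counts. Rnf187, a RING-type ubiquitin ligase gene, shows the pattern of the lower ones. In WT cells with rapamycin it was 24.4 and 26.5 CPM in the 2 outer libraries and 161, 143 and 153 CPM in the 3 inner libraries. In KO cells with LPS it was 9.86 CPM in the 1 outer library and 81.9, 77.5, 74.8 and 97.8 CPM in the 4 inner ones. Within each of these groups of 1 genotype and 1 treatment, outer and inner libraries did not overlap. In medium, Rnf187 was 13.5, 11.5, 14.5, 10.8 and 12.6 CPM in WT replicates 1 to 5, all outer, and 108, 115, 110.1, 138 and 145 CPM in KO replicates 1 to 5, all inner. The KO over WT log2 fold change of 3.28 (SE 0.56, edgeR adjusted p = 6.3e-05) became 0.77 (SE 0.30, edgeR adjusted p = 0.32) with the term.

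The 376 genes lower in outer codes had a median KO over WT log2 fold change of 1.36 in medium, where WT codes were outer and KO codes inner. With LPS, where WT codes were again all in row A and 4 of 5 KO codes were inner, the median was 1.17. It was 0.10 with 4u8C, where 2 of 5 codes in each genotype were outer, and -0.36 with 4PBA, where all were inner. Genes whose code term was not called (9870) had medians of -0.05, -0.03, -0.01 and 0.01 in the same order. The LPS and 4u8C groups also supplied libraries to the estimate that chose the 376 genes, so their medians are not independent of that choice. With LPS 6.06% of all genes were called, 4.31% higher and 1.75% lower, and 249 of the 376 were called higher. With 4u8C 0.953% were called, 0.428% higher and 0.525% lower, and none of the 376 was among them. Of the 376, 320 were called higher in KO cells in medium and 37 still with the term. Their median was 0.46 with the term. The median code term was -0.89, and the medium difference was 1.51 times its size in the median gene. Over all 10287 genes the medium difference and the code term had Pearson's r = -0.57 (Spearman's rho = -0.39). For the 4PBA difference against the code term they were 0.16 (rho 0.07). Both are correlations across genes, which are not independent replicates.

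**Figure D2:**
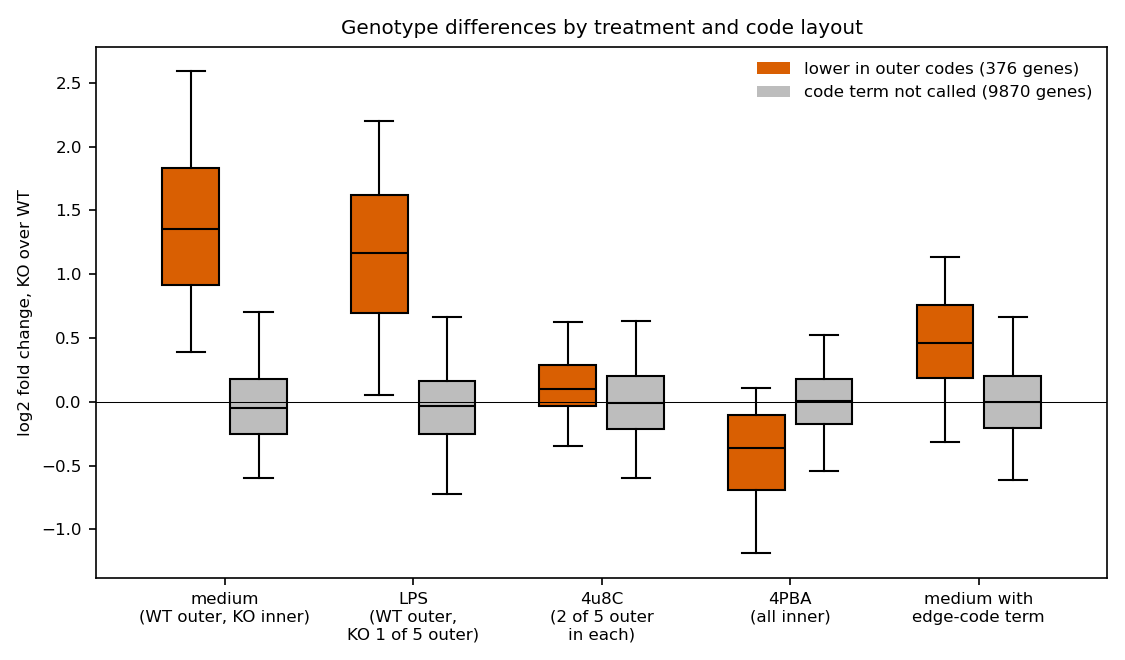
KO over WT log2 fold changes of the 376 genes called lower in outer codes (orange) and of the 9870 genes whose code term was not called (grey). Boxes span the quartiles with the median as a line, and whiskers reach the 5th and 95th percentiles over genes. The orange medians are 1.36 in medium, 1.17 with LPS, 0.10 with 4u8C and -0.36 with 4PBA, and 0.46 in medium with the edge-code term.

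The 67 genes called in both fits fell into 2 sets by their own code term. For 37, all higher in KO cells, the code term was called too. Their median log2 fold change was 1.83 in medium, 0.94 with the term and -0.31 with 4PBA, and 4 of the 37 had the same sign with 4PBA. The difference between the medium and 4PBA genotype effects was called for all 37, against 487 of all genes tested (4.73%, of which 4.42% higher in medium and 0.311% lower). With the edge-code term in that comparison 1.22% of all genes were called, 1.2% higher and 0.0292% lower. The 37 genes were chosen by their medium difference, which also enters that comparison, so their share of calls follows in part from the choice. For the other 30 genes (0.292% of those tested), 21 higher and 9 lower, the code term was not called. With 4PBA 25 of these 30 had the same sign and 12 were called, 7 higher and 5 lower, against 51 of all genes called with 4PBA (0.496%, of which 0.185% higher and 0.311% lower). The share of all genes with the same sign was not counted. Over all 10287 genes the medium and 4PBA differences had Pearson's r = 0.02 (Spearman's rho = 0.12). The split by code term was chosen after seeing the data, and 10 of the 30 genes lie within 100 tested genes of Bag6. The 4PBA counts depend on the libraries fitted: 19 higher and 32 lower became 43 and 130 in the 28 inner libraries alone, and 9 and 13 without KO 4PBA replicate 4. The 9 lower genes had medians of -1.11 in medium, -1.07 with the term and -0.59 with 4PBA. The 21 higher genes had medians of 1.69, 1.31 and 0.32. The lack of a call for the code term does not show that a gene was untouched by the codes.

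Among genes called in both fits the largest fold difference was that of Pim1, which encodes a serine/threonine kinase that cytokine receptors induce through JAK and STAT proteins. It was 16.2, 19.0, 18.1, 17.3 and 14.3 CPM in WT replicates 1 to 5 and 270.4, 270.3, 246, 222 and 220.1 CPM in KO replicates 1 to 5. Every KO library lay more than 10-fold above every WT library. The log2 fold change was 3.86 (SE 0.14, edgeR adjusted p = 1.0e-28) without and 3.77 (SE 0.16, edgeR adjusted p = 5.4e-25) with the edge-code term. With 4PBA, where all codes were inner, Pim1 was 19.3 to 29.1 CPM in WT and 285 to 392 CPM in KO libraries (log2 fold change 3.75, edgeR adjusted p = 2.3e-28). The genotype effects in medium and with 4PBA differed by 0.10 on the log2 scale (SE 0.18, edgeR adjusted p = 0.92). The code term of Pim1 was -0.09 (SE 0.10, edgeR adjusted p = 0.73). Of its transcript 50-base words, 8.8% also occur in Gm26885, so some of its reads could belong to that gene. Among the other Pim kinase genes, Pim3 had 96.6 ± 19.4 CPM in KO and 49.8 ± 17.03 CPM in WT libraries (SD over 5 libraries each). It rose by 0.96 on the log2 scale (SE 0.18, edgeR adjusted p = 0.00014). With the term Pim3 did not pass (0.81, SE 0.22, edgeR adjusted p = 0.070). The 250 bases before the start of Pim1 in RefSeq (GRCm38.p6, chr17:29490535-29490784, plus strand) are shown because of this difference. Capitals mark the GC box letters GGGCGG on either strand.
Pim1: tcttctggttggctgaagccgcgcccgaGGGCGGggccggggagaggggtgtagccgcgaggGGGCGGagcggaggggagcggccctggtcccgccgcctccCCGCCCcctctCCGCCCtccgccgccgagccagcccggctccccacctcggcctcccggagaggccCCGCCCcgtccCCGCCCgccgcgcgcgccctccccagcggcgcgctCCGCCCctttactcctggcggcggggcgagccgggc

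The Pim1 window holds 7 GC boxes and none of the CCAAT letters on either strand. At least 1 GC box occurs in 32.7% and at least 1 CCAAT box in 33.8% of 32851 RefSeq promoter windows of that length. These matches are a description of the letters only.

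**Figure D3:**
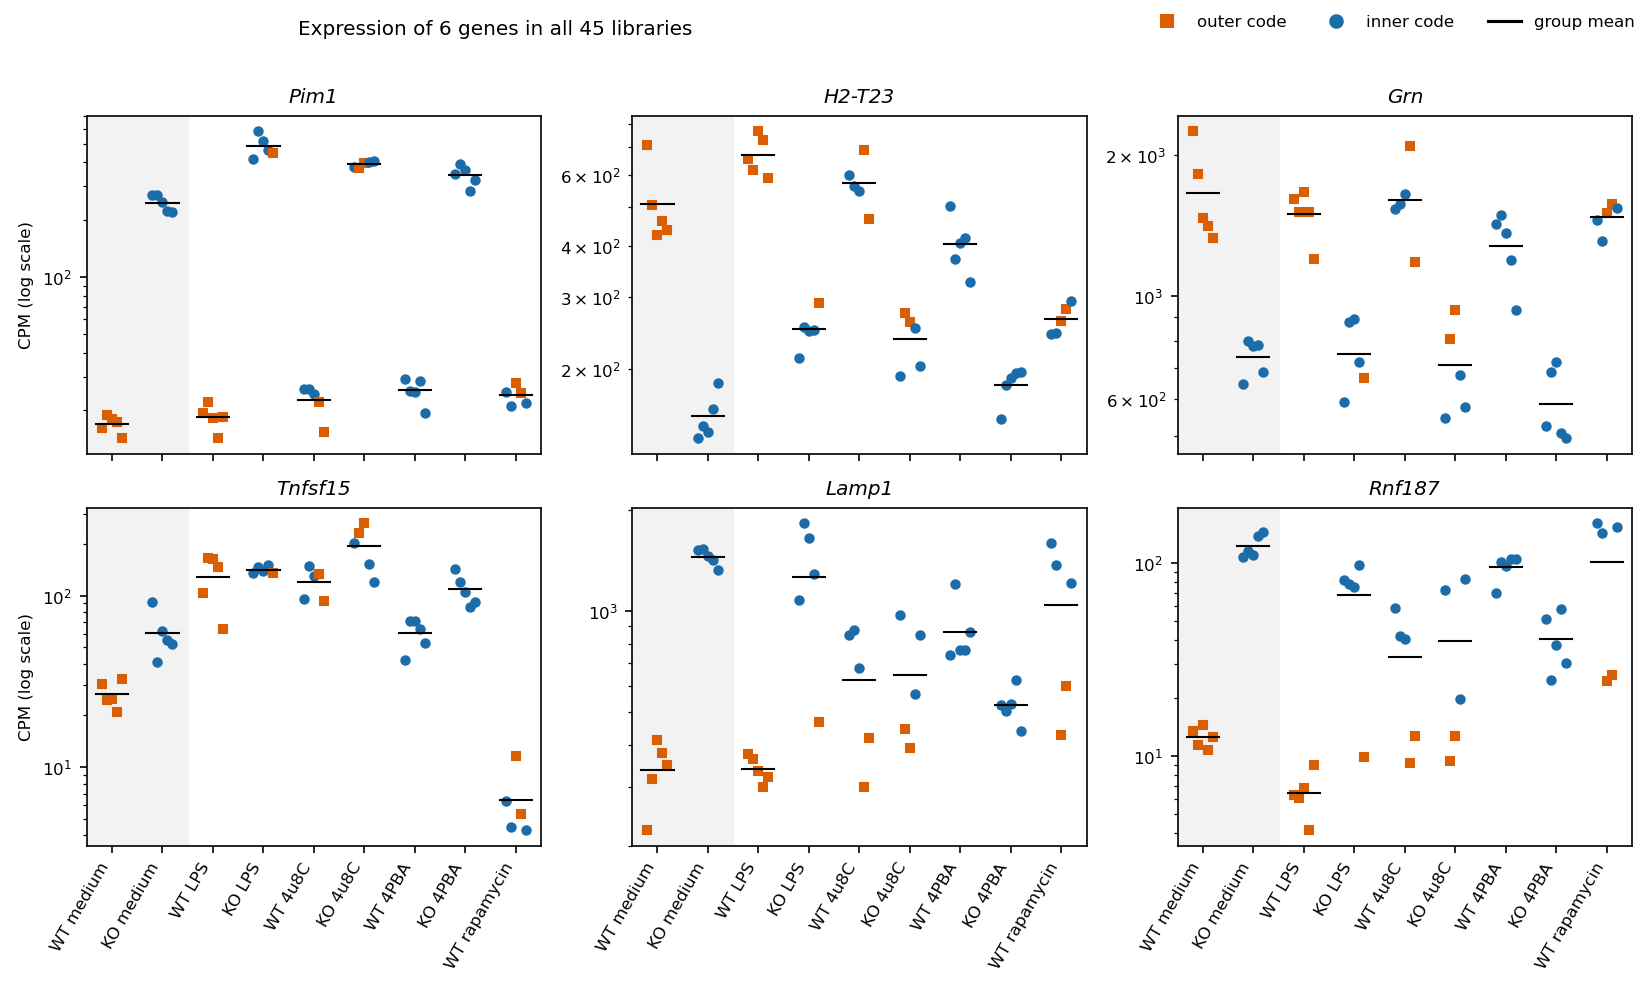
CPM on a log scale in all 45 libraries, by group, for Pim1, H2-T23, Grn, Tnfsf15, Lamp1 and Rnf187. Each point is 1 library, squares are outer and circles inner codes, bars are group means of 5 libraries, and the shaded columns are the medium groups. For Pim1, H2-T23 and Grn, KO and WT libraries did not overlap in medium or with 4PBA, LPS or 4u8C. Lamp1 and Rnf187 separate by code within the groups that hold both kinds.

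Several genes near Bag6 on chromosome 17 differed by genotype in both fits and with 4PBA. The labels give the loxP-flanked Bat3 and CD11c Cre to KO animals only. Loss of Bat3 and other inherited differences near the floxed gene therefore cannot be told apart for these genes. In RefSeq gene order, 201 tested genes lie within 100 tested genes of Bag6, itself included. Of these, 26 (12.9%) were called in medium and 10 (4.98%) were called in both fits, all 10 without a called code term. On other chromosomes 859 of 9698 genes (8.9%) were called in medium and 54 (0.56%) in both fits. With 4PBA 11 of the 201 genes (5.47%) and 37 of the 9698 (0.38%) were called. On the rest of chromosome 17 it was 1 of 356 (0.28%). Pim1 itself lies 96 tested genes before Bag6. Beside it, Btbd9 (90 before) was 17.8 to 22.8 CPM in WT and 32.4 to 41.6 CPM in KO libraries. Glo1 (89 before), which encodes glyoxalase 1, an enzyme that detoxifies methylglyoxal, was 17.6 to 25.8 CPM in WT and 29.6 to 45.4 CPM in KO libraries. Neither gene's groups overlapped. Their log2 fold changes were 0.92 and 0.83 in medium, and 0.95 (SE 0.19, edgeR adjusted p = 0.0044) and 0.98 (SE 0.19, edgeR adjusted p = 0.0027) with the term. With 4PBA Glo1 differed by 1.03 (edgeR adjusted p = 1.5e-05), while Btbd9 differed by 0.22 and did not pass (edgeR adjusted p = 0.64). The medium and 4PBA effects of Btbd9 differed without the term (edgeR adjusted p = 0.042) and did not pass with it (edgeR adjusted p = 0.19).

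**Figure D4:**
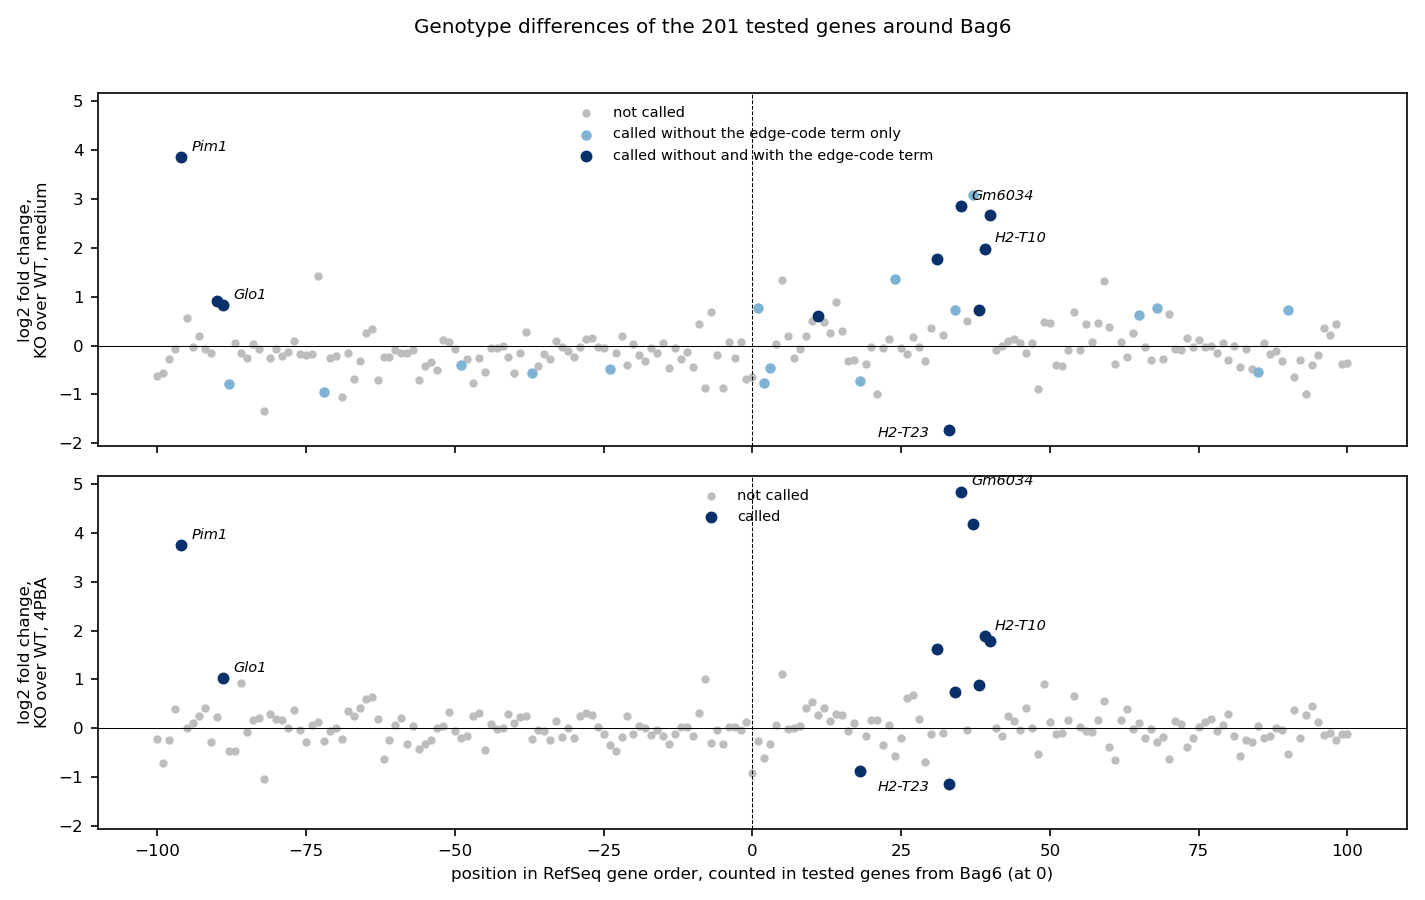
KO over WT log2 fold changes of the 201 tested genes around Bag6, in medium (top) and with 4PBA (bottom), against their place in RefSeq gene order counted in tested genes. Grey points did not pass, pale points in the top panel passed without the edge-code term only, and dark points passed in both fits (top) or passed with 4PBA (bottom). Dark points lie about Pim1 and Glo1 on the left and between 31 and 40 genes to the right of Bag6, apart from H2-Q5 in medium and Flot1 with 4PBA.

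The second cluster, 31 to 40 tested genes after Bag6, holds non-classical MHC class I genes of the T region, whose products are recognized by innate-like lymphocytes. H2-T23, which encodes Qa-1, the ligand of the CD94-NKG2 receptors of NK and T cells, was the gene lowered most among those called in both fits. It was 709, 505, 427, 461 and 438 CPM in WT replicates 1 to 5 and 135, 145, 140.3, 159 and 185 CPM in KO replicates 1 to 5. The groups did not overlap, and WT replicate 1 stood above the other WT libraries. The log2 fold change was -1.73 (SE 0.13, edgeR adjusted p = 6.3e-14) without and -1.58 (SE 0.16, edgeR adjusted p = 1.7e-09) with the term. With 4PBA it was -1.146 (edgeR adjusted p = 4.1e-08), from 327 to 502 CPM in WT and 151 to 196 CPM in KO libraries. H2-T10, related to the H2-T22 ligand of gamma-delta T cell receptors, moved the other way. It was 81.4, 39.8, 36.7, 35.5 and 49.1 CPM in WT and 207, 126, 138, 247 and 245 CPM in KO replicates 1 to 5, again without overlap. Its log2 fold changes were 1.99 (SE 0.20, edgeR adjusted p = 3.5e-09) without the term, 2.09 (SE 0.25, edgeR adjusted p = 5.8e-07) with it and 1.88 (edgeR adjusted p = 1.7e-08) with 4PBA.

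Of 18 tested non-classical class I genes, 5 were higher and 2 lower in medium, 3 higher and 2 lower with the term, and 5 higher and 2 lower with 4PBA. Over all genes tested 6.61% were higher and 2.31% lower in medium. The list's median log2 fold change was 0.37 in medium, 0.39 with the term and 0.22 with 4PBA, against -0.03, 0.01 and 0.00 over all genes. Besides H2-T10, the higher ones were H2-T22 (0.72), H2-Bl (3.08), Gm8909 (2.67) and Gm6034 (2.85). Gm6034 and Gm8909 passed with the term (log2 fold changes 2.67 and 2.61) at low levels of 5.88 ± 2.20 and 2.58 ± 0.945 CPM in KO libraries (SD, n = 5 each). Gm6034 was called in both fits in all 30 fits that left out 1 library, and Gm8909 in 19 of them. H2-T22 did not pass with the term (0.76, edgeR adjusted p = 0.097), nor did H2-Bl (3.01, edgeR adjusted p = 0.059). H2-T9 was the second lower gene, at 714 ± 280.2 CPM in WT and 332 ± 109 CPM in KO libraries (log2 fold changes -1.11, -1.07 with the term, edgeR adjusted p = 0.017, and -1.24 with 4PBA). Without WT medium replicate 1, H2-T9 did not pass with the term (-0.80, edgeR adjusted p = 0.061). The 16 classical class I and peptide-loading genes had medians of -0.09 in medium, 0.04 with the term and 0.01 with 4PBA.

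Members of this family share sequence, so their reads may be split between copies and their separate values are uncertain. In GENCODE M21, 50.4% of the 50-base words of H2-T10 occur in another gene, 31.7% in H2-T22, and 53.5% of those of H2-T22 are shared. The share was 51.2% for Gm6034, 26.4% for Gm8909, 36.4% for H2-Q5 and 14.5% for H2-T23. A930015D03Rik, which passed in both fits and with 4PBA (log2 fold changes 1.78, 1.64 and 1.63), shares 89.9% of its words with H2-T22. That share counts matches on either strand. Reads of the shared words cannot be told apart between the 2 genes without strand information. C920025E04Rik (0.73, 0.82 and 0.89) also passed in all 3 tests, and H2-Q5 (0.60, 0.58 and 0.28) in the first 2. C920025E04Rik was not called in both fits without KO medium replicate 1. Of 30 fits that left out 1 library, A930015D03Rik was called in both fits in 24 and H2-Q5 in 14. H2-T23 and H2-T22 lie next to each other among the tested genes and differed in opposite directions in medium. For that reason the 250 bases before the start of each gene in RefSeq (GRCm38.p6) are shown, H2-T23 at chr17:36032702-36032951 and H2-T22 at chr17:36042743-36042992, both on the minus strand. Capitals mark the CCAAT letters on either strand.
H2-T23: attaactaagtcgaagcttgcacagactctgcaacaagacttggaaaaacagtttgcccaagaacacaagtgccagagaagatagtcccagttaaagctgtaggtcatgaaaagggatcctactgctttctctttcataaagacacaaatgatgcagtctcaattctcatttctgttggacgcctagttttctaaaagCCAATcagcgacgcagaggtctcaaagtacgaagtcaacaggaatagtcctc
H2-T22: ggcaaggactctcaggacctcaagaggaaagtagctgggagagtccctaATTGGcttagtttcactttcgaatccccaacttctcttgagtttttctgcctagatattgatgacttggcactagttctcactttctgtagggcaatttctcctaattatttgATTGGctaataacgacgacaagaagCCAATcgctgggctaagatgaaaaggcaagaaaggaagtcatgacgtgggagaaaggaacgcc

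The H2-T23 window holds 1 CCAAT box and the H2-T22 window holds 3, and neither holds a GC box. These counts describe the windows and draw nothing about the factors that bind such letters.

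Away from chromosome 17, the clearest lower gene was Grn, which encodes progranulin, a secreted and lysosomal glycoprotein. Grn was 2246, 1820, 1468, 1410 and 1325 CPM in WT replicates 1 to 5 and 647, 800.4, 782, 782 and 687 CPM in KO replicates 1 to 5. The lowest WT library was above the highest KO library. The log2 fold change was -1.16 (SE 0.15, edgeR adjusted p = 9.7e-07) without and -1.01 (SE 0.19, edgeR adjusted p = 0.0024) with the term. With 4PBA it was -1.12 (edgeR adjusted p = 4.8e-06), and medians with LPS were 1510 CPM in WT and 722 CPM in KO libraries. Ide, the gene of insulin-degrading enzyme, a zinc metalloprotease, was 34.8, 37.4, 43.2, 46.3 and 52.8 CPM in WT and 16.2, 18.6, 20.0, 20.2 and 27.4 CPM in KO replicates 1 to 5. These groups did not overlap either. Its log2 fold changes were -1.08 (SE 0.21, edgeR adjusted p = 0.00026), -1.16 with the term (SE 0.28, edgeR adjusted p = 0.028) and -1.17 with 4PBA (edgeR adjusted p = 0.0016). Ide did not pass with the term in 5 of the 30 fits that left out 1 library, where its edgeR adjusted p ran from 0.0504 to 0.094 without KO medium replicate 1 or 2, WT medium replicate 4 or 5, or KO 4u8C replicate 2.

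Serinc3, a multipass membrane protein gene, had 44.96 ± 10.6 CPM in WT and 23.6 ± 3.06 CPM in KO libraries (SD, n = 5 each). Its differences on the log2 scale were -0.94 without the term, -0.995 with it (edgeR adjusted p = 0.0014) and -0.59 with 4PBA (edgeR adjusted p = 0.033). Grn, H2-T23 and Serinc3 were the 3 lower genes called in both fits in all 30 fits that left out 1 library. The other 4 lower genes did not pass with 4PBA. Nptn, which encodes the adhesion protein neuroplastin, was 29.4 to 50.02 CPM in WT and 12.4 to 19.4 CPM in KO libraries in medium. Its log2 fold change was -1.49 with the term (edgeR adjusted p = 0.017), but -1.41 (edgeR adjusted p = 0.061) without KO medium replicate 1, and 0.02 with 4PBA, a difference between treatments that passed without the term (edgeR adjusted p = 0.019) and not with it (edgeR adjusted p = 0.067). Fam213b, Ensa, an inhibitor of the phosphatase PP2A, and Nceh1, a neutral cholesterol ester hydrolase, had log2 fold changes of -1.34, -0.92 and -0.85 with the term. With 4PBA they were -0.40, -0.27 and -0.06, and the difference between treatments did not pass for any of them. Calls in both fits rested on single libraries for all 3 genes. Ensa was called in 28 of 30 fits that left out 1 library, not without KO medium replicate 1 or WT medium replicate 4. Nceh1 was called in 26, not without KO medium replicate 1 or 5, WT medium replicate 5 or KO LPS replicate 5. Fam213b was called in 10, and 7 of its losses came from leaving out a medium library.

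Among the higher genes without a called code term, Tnfsf15, which encodes the TNF superfamily cytokine TL1A, was 30.7, 24.6, 24.9, 21.0 and 32.8 CPM in WT replicates 1 to 5. In KO replicates 1 to 5 it was 92.1, 41.2, 62.3, 55.1 and 51.9 CPM, all above the WT range. The log2 fold change was 1.18 (SE 0.23, edgeR adjusted p = 0.00038) without and 1.42 (SE 0.29, edgeR adjusted p = 0.0085) with the term. With 4PBA it was 0.86 and did not pass (edgeR adjusted p = 0.067), although KO libraries (86.3 to 143 CPM) lay above WT libraries (42.3 to 71.5 CPM). With LPS, median levels were 146 CPM in WT and 139 CPM in KO libraries. Slc1a2, which encodes a glutamate transporter, was 12.03 to 21.0 CPM in WT and 32.7 to 60.9 CPM in KO libraries (log2 fold changes 1.41, and 1.64 with the term, SE 0.38, edgeR adjusted p = 0.023). It did not pass with the term without KO medium replicate 1 or 5 or WT medium replicate 2 or 5 (edgeR adjusted p from 0.0504 to 0.078). Osgin2 was 7.36 to 13.7 CPM in WT and 20.5 to 40.1 CPM in KO libraries (1.69, and 1.20 with the term, edgeR adjusted p = 0.0062). Its code term of -0.48 lay at the threshold (edgeR adjusted p = 0.0504), and its effect in medium exceeded that with 4PBA by 1.38 (edgeR adjusted p = 0.00079). With the term that difference was 0.90 and did not pass (edgeR adjusted p = 0.19). Lonp1, a mitochondrial protease, Smek1, a regulatory subunit of the phosphatase PP4, and Ttc39c had log2 fold changes of 1.20 to 1.41 with the term and of -0.25 to -0.49 with 4PBA. These calls were easily lost: of 30 fits that left out 1 library, Lonp1 was called in both fits in 13, Smek1 in 18 and Ttc39c in 21.

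The 37 genes that kept a call although their code term was called include signalling and lysosomal genes with large differences. Ripk2, the kinase that transmits signals of the NOD1 and NOD2 receptors, was 7.601, 7.22, 6.22, 8.80 and 10.2 CPM in WT replicates 1 to 5. In KO replicates 1 to 5 it was 93.5, 54.3, 50.6, 61.6 and 47.6 CPM, with no overlap. The log2 fold change of 2.93 (SE 0.37, edgeR adjusted p = 1.2e-06) became 1.71 (SE 0.30, edgeR adjusted p = 0.0014) with the term. With 4PBA the groups overlapped, at 56.1 to 93.7 CPM in WT and 47.7 to 79.5 CPM in KO libraries (log2 fold change -0.18, edgeR adjusted p = 0.89). In WT cells with 4u8C, Ripk2 was 58.2, 67.3 and 43.7 CPM in inner and 18.5 and 41.0 CPM in outer libraries. Gch1, which encodes the first enzyme of tetrahydrobiopterin synthesis, was 9.09 to 13.5 CPM in WT and 61.6 to 129 CPM in KO libraries (2.87, 1.42 with the term, edgeR adjusted p = 0.0033, and -0.84 with 4PBA). Hgsnat, an enzyme of lysosomal heparan sulfate breakdown, was 9.56 to 17.4 CPM in WT and 66.5 to 90.5 CPM in KO libraries (2.44, 1.19 with the term, edgeR adjusted p = 0.0033, and -0.02 with 4PBA). Lrrfip2 went from 2.88 to 1.21 with the term (edgeR adjusted p = 0.0099) and was -0.59 with 4PBA.

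Lamp1, the gene of an abundant glycoprotein of the lysosomal membrane, had 1448 ± 83.4 CPM in KO and 336 ± 73.2 CPM in WT libraries (SD, n = 5 each), and its groups did not overlap. Its log2 fold change was 2.11 (SE 0.32, edgeR adjusted p = 1.1e-05) without and 0.85 (SE 0.20, edgeR adjusted p = 0.021) with the term. With 4PBA it was -0.73 (edgeR adjusted p = 0.36), with 738 to 1203 CPM in WT and 439 to 625 CPM in KO libraries. WT libraries had at least 738 CPM with 4PBA (inner codes) and at most 414 CPM in medium (outer codes), where treatment and codes both differ. KO libraries, all with inner codes, had at least 1323 CPM in medium and at most 625 CPM with 4PBA. In WT cells with rapamycin Lamp1 was 426 and 599 CPM in the outer and 1597, 1371 and 1216 CPM in the inner libraries. The genotype effects of Ripk2, Gch1, Hgsnat, Lrrfip2 and Lamp1 differed between medium and 4PBA (edgeR adjusted p from 9.2e-06 to 0.00012), and also with the term (edgeR adjusted p from 4.6e-05 to 0.013). Lamp1 was not called in both fits without KO medium replicate 1, WT medium replicate 1 or 2, or WT 4u8C replicate 5. How much of the part that the term left is due to row A was not tested, since no group held row A and inner codes together.

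Several of the largest differences did not pass once the codes were allowed for. Cebpb, a transcription factor of myeloid cells, was 1.70 to 3.55 CPM in WT and 28.8 to 36.8 CPM in KO libraries in medium, and its log2 fold change went from 3.51 (SE 0.65) to 1.38 (SE 0.65, edgeR adjusted p = 0.48). Syap1, Ndnl2, Marcksl1 and Phlda3 went from 3.13 to 3.27 without the term to 1.27 to 1.55 with it. Their edgeR adjusted p-values with the term ran from 0.0501 to 0.62, and all 4 had negative log2 fold changes with 4PBA. Fbrsl1 and Cited4, 2 further genes with large code terms (-2.60 and -2.21), had 3.36 and 3.72 without and 0.76 and 1.51 with the term.

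On the lower side, the estimates moved less: the estimate with the term was 0.75 of that without it in the median gene that did not pass, against 0.49 for the higher genes. C1qa and C1qb, chains of the complement component C1q, had log2 fold changes of -1.94 and -1.51 without and -1.71 (edgeR adjusted p = 0.059) and -1.42 (edgeR adjusted p = 0.16) with the term. In medium C1qa was 50.5, 80.5, 64.5, 40.3 and 30.8 CPM in WT and 12.9, 12.02, 17.1, 6.48 and 20.9 CPM in KO replicates 1 to 5, without overlap. Pira2, an activating paired immunoglobulin-like receptor, was 136 to 165 CPM in WT and 31.6 to 85.5 CPM in KO libraries. Its log2 fold changes were -1.46 without the term, -1.46 with it (edgeR adjusted p = 0.080) and -1.45 with 4PBA (edgeR adjusted p = 0.018). Ifitm1, an interferon-induced membrane protein, gave -1.45, -1.22 (edgeR adjusted p = 0.21) and -1.39 (edgeR adjusted p = 0.045). Apoe, a lipid carrier, gave -1.08, -1.11 (edgeR adjusted p = 0.11) and -1.20 (edgeR adjusted p = 0.013), and Hmgcs1, an enzyme of sterol synthesis, gave -0.83, -1.04 (edgeR adjusted p = 0.0501) and -0.96 (edgeR adjusted p = 0.018). These 4 genes thus differed by genotype in both treatments, which may not be independent, although they missed the threshold with the term. Of the genes called in medium, 28 were called with the same sign with 4PBA, 10 higher and 18 lower, which is 3.05% of the medium calls and 54.9% of the 4PBA calls. None of the 28 had a called code term, 11 of them lie within 100 tested genes of Bag6, and 12 were also called with the term.

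C1qa, C1qb and Apoe are also in the macrophage marker list, of whose 15 tested genes 3 were lower and none higher in KO cells, against 2.31% lower and 6.61% higher over all genes. Summed macrophage markers ran from 13090 to 19330 CPM in WT and from 10640 to 16640 CPM in KO libraries, overlapping. Of 7 tested neutrophil markers 2 were lower, Cxcr2 (-1.20, and -0.72 with the term, edgeR adjusted p = 0.20) and Padi4 (-1.26, and -1.30 with the term, edgeR adjusted p = 0.0501). The ranges of the summed neutrophil markers overlapped as well, and erythroid and platelet markers summed to 463 to 1167 CPM in WT and 276 to 886 CPM in KO libraries. The part of such cells in the lower levels was not tested.

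Inflammatory genes were compared by list, each read against 6.61% of all genes higher and 2.31% lower in medium, and 0.574% higher and 0.0875% lower with the term. In the interleukin-1 family, 4 of 12 tested genes were higher, none was lower, and 1 was higher with the term. Its median log2 fold change was 0.49 in medium, 0.52 with the term and 0.06 with 4PBA. Il1b, the gene of interleukin-1 beta, was 536, 223, 209.6, 309 and 361 CPM in WT and 1176, 605, 475, 282 and 530 CPM in KO replicates 1 to 5. KO replicates 3, 4 and 5 lay within the WT range, and KO replicates 1 and 2 lay above it. The log2 fold change was 0.90 (SE 0.27, edgeR adjusted p = 0.026), and 1.27 (SE 0.33, edgeR adjusted p = 0.052) with the term. Il1a was 0.72 and 0.88, and Il1rn, the gene of the receptor antagonist, 0.51 and 0.55, without and with the term, and neither passed with it. Il1f9, which encodes interleukin-36 gamma, was the member called in both fits (0.47 and 0.79, SE 0.18, edgeR adjusted p = 0.017), and its groups overlapped by a narrow margin (89.7 to 125 CPM in WT, 114 to 180 CPM in KO). Without KO medium replicate 1 and 6 further single libraries Il1f9 was not called in both fits.

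Of 21 NF-kB subunits and feedback genes 6 were higher without and none with the term. The median log2 fold change of these 21 was 0.27 in medium, 0.24 with the term and 0.05 with 4PBA. Tnfaip3, the gene of the feedback inhibitor A20, went from 0.79 to 0.12 and had a called code term (-0.67). Nfkbiz, an inducible regulator of NF-kB target genes, went from 0.80 only to 0.71 (edgeR adjusted p = 0.11), with a medium effect above that with 4PBA without the term (edgeR adjusted p = 0.034) and not with it (edgeR adjusted p = 0.35). The 19 tested chemokine genes had a median log2 fold change of 0.14 in medium, 0.36 with the term and 0.06 with 4PBA, and the 26 cell cycle genes had medians of -0.14, -0.14 and -0.04.

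Among lists of the lysosome, redox and protein folding, the higher members Lamp1, Plbd2, Gclm, Txnrd1, Gsr and Dnajb11 had a called code term, and Mcoln1 and Glo1 did not. Over all genes tested, 6.61% were higher and 2.31% lower without the term, and 0.574% and 0.0875% with it. Of 25 lysosomal genes 3 were higher and 1 lower without, and 2 higher and 1 lower with the term. The 2 were Lamp1 and Plbd2, a phospholipase B-like lysosomal protein (2.34, and 0.94 with the term, edgeR adjusted p = 0.00084), and the lower one was Grn. Of 19 NRF2 and glutathione genes 4 were higher and 1 lower without the term, and 3 were higher with it. These 3 were Glo1, Txnrd1, a thioredoxin reductase (1.68, and 0.97 with the term, edgeR adjusted p = 0.043), and Gsr, glutathione reductase (1.67, and 1.03, edgeR adjusted p = 0.015). Txnrd1 was called in both fits in 15 of the 30 fits that left out 1 library. Gsr was called in 28, not without KO medium replicate 1 or WT medium replicate 2. Only Glo1 of the 3 was called with 4PBA, where Txnrd1 and Gsr were at -0.12 and -0.54. Of 23 XBP1-ATF6 and endoplasmic reticulum folding genes 1 was higher and 1 lower without the term. The higher one, Dnajb11, a co-chaperone of the endoplasmic reticulum, was called with it as well (1.68, and 0.84, edgeR adjusted p = 0.0099) and was -0.14 with 4PBA.

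Of 25 oxidative phosphorylation genes, 24 had a negative log2 fold change in medium, against 5554 of the 10287 genes tested. Of the 25, 5 were called lower, against 2.31% of all genes, and none passed with the term. The list's median went from -0.21 to -0.08, and was -0.04 with 4PBA. Examples are Ndufb7, a subunit of complex I (-0.56, and -0.48 with the term), and Cox5b, a subunit of complex IV (-0.47, and -0.34). Mean log2(CPM + 1) over the list ran from 6.64 to 6.97 in WT and from 6.5 to 6.61 in KO libraries, without overlap. Negative values in medium were not particular to this list. They were found for 30 of 31 cytosolic ribosomal protein genes and 21 of 22 proteasome subunit genes. The ribosomal protein medians were -0.34 in medium, -0.16 with the term and -0.33 with 4PBA. Of 21 sterol synthesis genes 3 were lower (Hmgcs1, Fdps and Acat2), with a list median of -0.33 in medium, -0.30 with the term and -0.26 with 4PBA. Of 14 paired immunoglobulin-like and CD300 receptor genes 5 were lower and 1, Sirpa, was higher, and none passed with the term. Besides Pira2 they include Tyrobp, the signalling adaptor of several of these receptors (-0.58, and -0.35 with the term). All 4 tested interferon-induced membrane protein genes had negative log2 fold changes, and 3 of them, Ifitm1, Ifitm2 and Ifitm6, were called without and none with the term. The lists' genes share libraries and a fit, so their counts are descriptions.

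**Figure D5:**
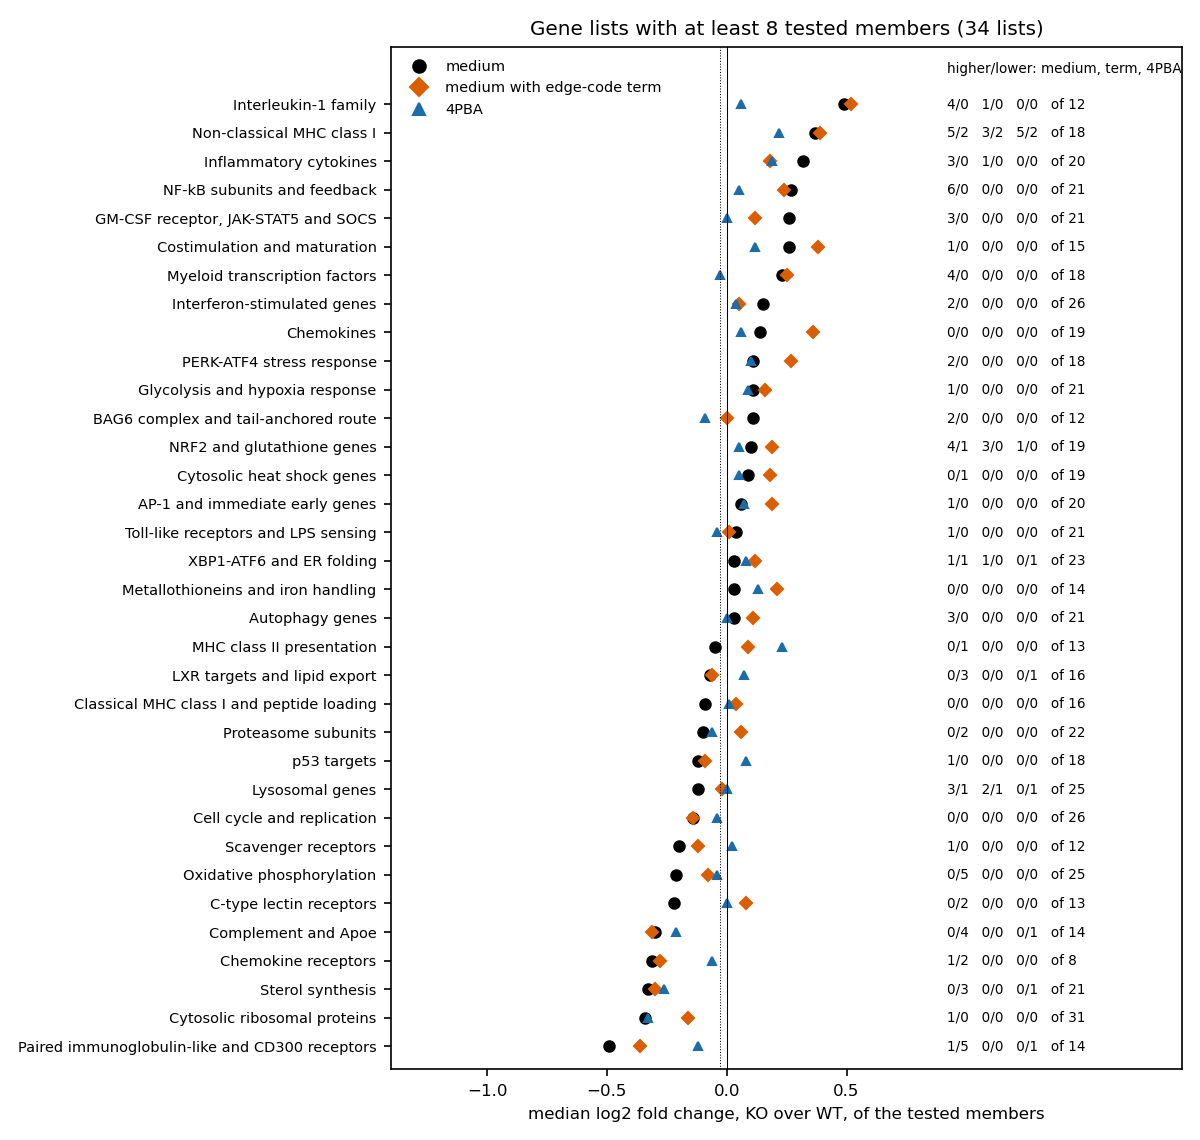
Median KO over WT log2 fold change of the tested members of 34 gene lists with at least 8 tested members, in medium (circles), in medium with the edge-code term (diamonds) and with 4PBA (triangles). Numbers at the right give members called higher and lower in the 3 tests and the number tested. The dotted line is the median of all genes tested in medium, -0.03. The interleukin-1 family has the highest median in medium, 0.49, and paired immunoglobulin-like and CD300 receptors the lowest, -0.49.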

How the data were processed

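RNA of 1 µg per replicate was made into libraries with a TruSeq kit, 5 biological replicates in each of 9 groups, per the labels. The deposited gene tables hold expected counts and TPM, estimated by the authors with RSEM after bcl2fastq, per the submitters' processing notes and the file headers. Which aligner, genome build, tool versions and strand setting were used is not given in the sources used here. TPM (scaled for gene length, as deposited) was read only to record levels per length and enters no test. Expected counts were rounded to whole numbers (9.09% were not whole). Nothing states whether replicates came from separate mice, so p-values measure the spread between these libraries. Genes under edgeR's default expression filter were left out, which kept 10287 of 23420.

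A robust quasi-likelihood F test (edgeR 4.0.16 in R 4.3.3, TMM factors) was fitted to all 45 libraries with 9 group means and 36 residual degrees of freedom, and again with an outer or inner code term and 35. P-values were adjusted by Benjamini and Hochberg over all genes tested, and calls are at 0.05. CPM values use TMM-scaled totals. The codes come from the library names. Bag6 was tested by exact permutation of 10 libraries. Alternatives were DESeq2 1.42.0, other size factors, no filter, fewer libraries, a surrogate variable (sva 3.50.0) and a replicate block. Single libraries were also left out in turn, in every group but WT with LPS. The fit was tested on simulated counts.

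Genes to name were those whose medium groups did not overlap and whose mean reached 10 CPM in 1 of them. Of these, the 12 most changed each way with the term were taken from genes called in both fits, and the 6 most changed each way from genes called without the term only. Bag6, up to 10 genes near it, 3 genes with the largest code terms and up to 5 called members of each list were added. Further genes near Bag6, members of lists and genes below 10 CPM were named after their values were seen. Members and the 44 lists (36 gene groups and 8 marker lists, 747 genes, 18 without a row) were chosen with earlier results of these data known. Gene order and promoters are from RefSeq, where 23068 genes matched by transcript, 224 by symbol and 128 not at all. Shared transcript words of 50 bases were counted in GENCODE M21.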

Additional observations from a re-analysis of the deposited data

Results flagged for a closer look

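In groups of 5 libraries, a single library stood apart from the other 4 for 11 of the named values, by a rule that chance meets in about 1 of 20 groups. With 70 named genes, several such cases are met by chance, so the 11 are a description only. KO medium replicate 1 stood high for Gch1 (128.6 CPM), Syap1 (29.1 CPM), Il1a (782.7 CPM) and Nfkbiz (54.7 CPM). WT medium replicate 1 stood high for H2-T23 (708.9 CPM), Marcksl1 (20.8 CPM) and C920025E04Rik (76.3 CPM), and low for Gm6034 (0.245 CPM) and Pim3 (19.9 CPM). WT replicate 5 stood high for Osgin2 (13.7 CPM) and KO replicate 3 for Fam213b (6.05 CPM).

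The genotype effect in medium differed from that with 4PBA for 27 of 70 named genes (edgeR interaction test), against 4.73% of all genes tested. Many of these genes were named for large medium differences or code terms, so that share follows in part from the choice. The difference is given here as the medium minus the 4PBA log2 fold change. Among genes called in both fits it was 3.11 for Ripk2, 3.71 for Gch1, 3.48 for Lrrfip2, 2.58 for Ttc39c, 2.47 for Hgsnat, 2.14 for Smek1, 2.02 for Lonp1, 1.38 for Osgin2 and 0.69 for Btbd9. Of the lysosomal and redox genes, Lamp1 differed by 2.83, Plbd2 by 2.76, Gsr by 2.21, Txnrd1 by 1.80 and the folding gene Dnajb11 by 1.82. The largest values were those of genes that did not pass with the term and were named for large medium differences or code terms. Fbrsl1 differed by 5.56, Cebpb by 5.36, Cited4 by 4.96, Phlda3 by 4.81, Ndnl2 by 4.71, Syap1 by 4.54, Rnf187 by 4.52 and Marcksl1 by 4.34. Ubqln1 differed by 2.24, Get4 by 1.00 and Nfkbiz by 0.78. Nptn (-1.34) and Cxcr2 (-1.41) were called lower in KO cells in medium and were not called with 4PBA. With the edge-code term the difference did not pass for Nptn, Btbd9, Osgin2, Nfkbiz, Txnrd1, Lonp1, Fbrsl1, Cited4, Phlda3, Get4 or Cxcr2. Plate codes differ between genotypes in medium and not with 4PBA, so treatment and codes cannot be told apart in these differences.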

How the results depend on the processing

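The term is estimated from 7 outer libraries, none in row A, and low counts limit genes such as Bag6, Gm6034 and H2-Bl. With DESeq2, 114 genes were higher and 21 lower with the term, 106 and 20 in both fits, 34 and 51 with 4PBA, and 86 were higher in outer codes. Without a filter on low counts, 137 were lower in medium, 19 lower with 4PBA, 189 higher and 53 lower with the term, and 118 and 29 in both fits. In the 28 inner libraries alone, 43 genes were higher and 130 lower with 4PBA. With the edge-code term, the medium effect exceeded the 4PBA effect at 123 genes and was below it at 3. Among genes without a called code term, a restriction chosen after seeing the data, 21 were higher and 9 lower in both fits. With DESeq2's size factors in edgeR 696 were higher and 214 lower in medium, with the 10 medium libraries alone 632 and 232, and with 1 surrogate variable 730 and 342. The cause of these shifts was not tested.

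Equal replicate numbers did not pair KO with WT libraries in medium (correlations of deviations 0.24, 0.22, 0.43, -0.23 and -0.11 over 2000 genes). For Ifitm1 and for Bag6 the same KO replicate was highest in medium and with 4PBA, LPS and 4u8C. Whether equal numbers pair libraries of the same genotype across treatments was not tested over all genes. A replicate block, which joins KO and WT libraries of the same number, gave 746 higher and 400 lower in medium. It gave 39 and 76 with 4PBA, 78 and 15 with the term, and 76 and 15 in both fits. Under the block Bag6 was -0.69 on the log2 scale (edgeR adjusted p = 0.036), and -0.67 with 1 surrogate variable (edgeR adjusted p = 0.048).

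Leaving out 1 library at a time, the Bag6 difference ran from -6.33 to -4.36 CPM and its log2 fold change from -0.85 to -0.51. Medium counts ran from 513 to 695 higher and 108 to 297 lower, those with the term from 23 to 79 and 5 to 15, and those in both fits from 23 to 79 and 4 to 15. With 4PBA they ran from 9 to 25 higher and 13 to 36 lower, with 9 and 13 without KO replicate 4, 9 and 14 without KO replicate 1, and 10 and 14, 11 and 18, 10 and 21, and 10 and 21 without WT replicates 1 to 4. The comparison of medium with 4PBA gave 396 to 457 and 23 to 44. Code calls ran from 6 higher (without WT 4u8C replicate 4) to 145 (without WT 4u8C replicate 5), and from 291 to 411 lower. Tnfaip3 with the term ran from -0.0258 (without KO medium replicate 1) to 0.29. With 4PBA, values near 0 changed sign: Hgsnat from -0.15 to 0.0705, Nptn from -0.13 to 0.18, Nceh1 from -0.14 to 0.0889, Nfkbiz from -0.0508 to 0.0832 and Txnrd1 from -0.21 to 0.03. Of 1115 single-gene values in medium 66 lost and 3 gained a call and none changed sign. Of 2367 with the term 133 lost and 84 gained one.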

Other observations

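Of 21 autophagy genes, 3 were called higher in medium, against 6.61% of all genes, none was called lower, and none was called with the edge-code term. The list's median was 0.03, and 9 of the 21 were negative. Atg3, an enzyme of LC3 lipidation, differed by 1.65 on the log2 scale without and 0.54 with the term, Map1lc3a by 1.53 and 0.41, and Wipi2 by 1.25 and 0.61 (edgeR adjusted p without the term 4.9e-05, 0.00056 and 0.00036). With 4PBA they were -0.89, -0.20 and 0.10 and did not pass. Of 18 myeloid transcription factor genes, 4 were called higher (Cebpb, Cebpd, Zbtb46 and Runx3) and none with the term. Their list median was 0.23 in medium, 0.25 with the term and -0.03 with 4PBA. Runx3, a transcription factor of dendritic cells and lymphocytes, differed by 0.73 without (edgeR adjusted p = 5.0e-05) and 0.41 with the term. Of 22 proteasome subunit genes, 21 had negative log2 fold changes in medium, against 5554 of all 10287 genes. Psmb2 (-0.40) and Psmb3 (-0.40) were called lower, against 2.31% of all genes. The list's median was -0.10 in medium and 0.06 with the term.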
